A study of Mus musculus with 18 samples.

Results

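The 10 genes described here encode receptors for bile acids, the arrestins that act on such receptors, and proteins that make or export bile acids: Gpbar1, Nr1h4, Vdr, S1pr2, Arrb1, Arrb2, Abcc3, Abcc4, Cyp27a1 and Cyp7b1. They were taken by symbol, and all 10 had a row among the 19197 genes measured in each of 18 mouse hearts. The tissue was the apex of hearts of C57BL/6 mice, taken 1 day after surgery. There were 3 groups, each of 6 hearts: sham surgery with vehicle (sham_vehicle), infarction with vehicle (MI_vehicle, where MI stands for myocardial infarction) and infarction with DCA, 10 mg/kg daily (MI_DCA). DCA is not spelled out in the labels and is read here as deoxycholic acid, since the title of the study pairs it with TGR5, the receptor encoded by Gpbar1. No group combined sham surgery with DCA, so the labels allow no comparison of DCA with vehicle outside infarction. The labels give no age, sex, route or start of treatment, and do not say that each library came from its own mouse, and p-values therefore reflect only how far these samples spread.

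Bile acids are made from cholesterol in the liver and modified by gut bacteria, and deoxycholic acid is one of the bacterial products. They act as detergents in the gut and as signals elsewhere. At the cell surface TGR5 couples to the stimulatory G protein Gs and raises cyclic AMP, and in macrophages this pathway is known for restraining inflammatory cytokines. Sphingosine-1-phosphate receptor 2 (S1pr2) also responds to conjugated bile acids, the farnesoid X receptor (FXR, Nr1h4) and the vitamin D receptor (VDR, Vdr) are nuclear receptors that bind bile acids and act on DNA, and beta-arrestins (Arrb1, Arrb2) bind activated receptors, end G protein coupling and carry signals of their own.

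Sequence just ahead of the annotated start is shown for 3 of the 4 receptors, because the receptors ranged in level from near 0 to several FPKM (fragments counted on a transcript, scaled by its length and by the mapped fragments of the library), and because a nuclear receptor core motif or a cyclic AMP response element would be the motifs of the pathways named above. The RefSeq promoter table of build GRCm38.p6 matched 6 of the 10 genes (Gpbar1, Nr1h4, Vdr, S1pr2, Abcc4 and Cyp27a1), and Arrb1, Arrb2, Abcc3 and Cyp7b1 are named only. The windows are 250 bases long and end at the base before the start, except that of Gpbar1. The annotated start of Gpbar1 is its start codon, and its window is 200 bases and stops ahead of an untranslated stretch before that codon. Where its transcription starts was not established, so that window may not lie ahead of that point. The Nr1h4 and Cyp27a1 starts and both Abcc4 starts lie inside the span of longer models, and their windows were searched but are not shown. Letters searched on both strands were AGGTCA, the core motif of nuclear receptors, TGACGTCA, the cyclic AMP response element, and TGANTCA, the AP-1 site. Capitals mark matches, and no match overlapped another.
S1pr2, chr9:20976794-20977043, minus strand: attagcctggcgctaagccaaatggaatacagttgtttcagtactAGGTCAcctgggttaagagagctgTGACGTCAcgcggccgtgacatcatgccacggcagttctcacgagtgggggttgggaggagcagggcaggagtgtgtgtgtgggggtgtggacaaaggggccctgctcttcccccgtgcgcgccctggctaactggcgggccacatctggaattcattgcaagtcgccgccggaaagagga
Gpbar1, chr1:74278350-74278549, plus strand: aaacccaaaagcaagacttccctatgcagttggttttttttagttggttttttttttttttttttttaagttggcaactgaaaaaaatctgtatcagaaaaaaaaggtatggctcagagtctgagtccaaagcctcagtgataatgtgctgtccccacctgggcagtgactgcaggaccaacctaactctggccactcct
Vdr, chr15:97908297-97908546, minus strand: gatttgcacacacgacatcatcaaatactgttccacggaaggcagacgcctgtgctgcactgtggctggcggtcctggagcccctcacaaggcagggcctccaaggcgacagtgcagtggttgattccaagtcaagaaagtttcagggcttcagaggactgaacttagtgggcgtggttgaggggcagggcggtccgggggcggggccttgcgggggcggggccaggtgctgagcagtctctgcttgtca
The S1pr2 window held AGGTCA at -205 and TGACGTCA at -181, counted from the start. The Nr1h4 window held AGGTCA on the opposite strand at -214. The windows of Gpbar1, Vdr, Cyp27a1 and both Abcc4 starts held none of the 3 motifs. Among 32851 windows of 250 bases in the table, 14.02% held AGGTCA, 1.55% held TGACGTCA and 6.75% held TGANTCA, so a match to AGGTCA is common, and a match or its absence says only that the letters are or are not there.

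Values are FPKM as deposited. The estimated depth was 9680000 to 13800000 reads per library, lowest in the sham hearts (9680000 to 10740000) and highest in MI_vehicle (11180000 to 13800000), and genes above 0 numbered 15730 to 16229. The tissue label held in the data: the summed level of 8 cardiomyocyte markers was 33578 to 36804 FPKM in sham_vehicle, and 4 of 5 measured markers of intestinal epithelium stayed below 1 FPKM in all hearts. The fifth, Lgals4, brought the sum of that list to 53.08 to 139.96 FPKM in sham_vehicle and was called lower in MI_vehicle (log2 fold change -2.44, adjusted p = 0.00114). Replicate 5 of sham_vehicle carried liver transcripts, with Alb (albumin) at 15.44, Apoa1 at 3.55 and Ttr at 2.54 FPKM. Its 8 hepatocyte markers summed to 31.05 FPKM against a median of 2.70 in its group. Infarcted hearts differed in injury markers. Nppb, a natriuretic peptide gene of stressed cardiomyocytes, was 75.0 to 276.6 FPKM in sham hearts and 1102 to 3500 FPKM in 8 infarcted hearts, but 323.8 in MI_vehicle replicate 4 and 298.8, 144.3 and 166.9 in MI_DCA replicates 1, 3 and 5. These 4 infarcted hearts also kept more of Kcnip2, a potassium channel subunit of cardiomyocytes, at 60.7 to 76.3 FPKM against 5.91 to 26.1 in the other 8. Comparisons between MI_DCA and another group are therefore given below with and without them where this turned a direction or moved the value by over 1.5 times, a choice made after the values were seen.

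**Figure D1:**
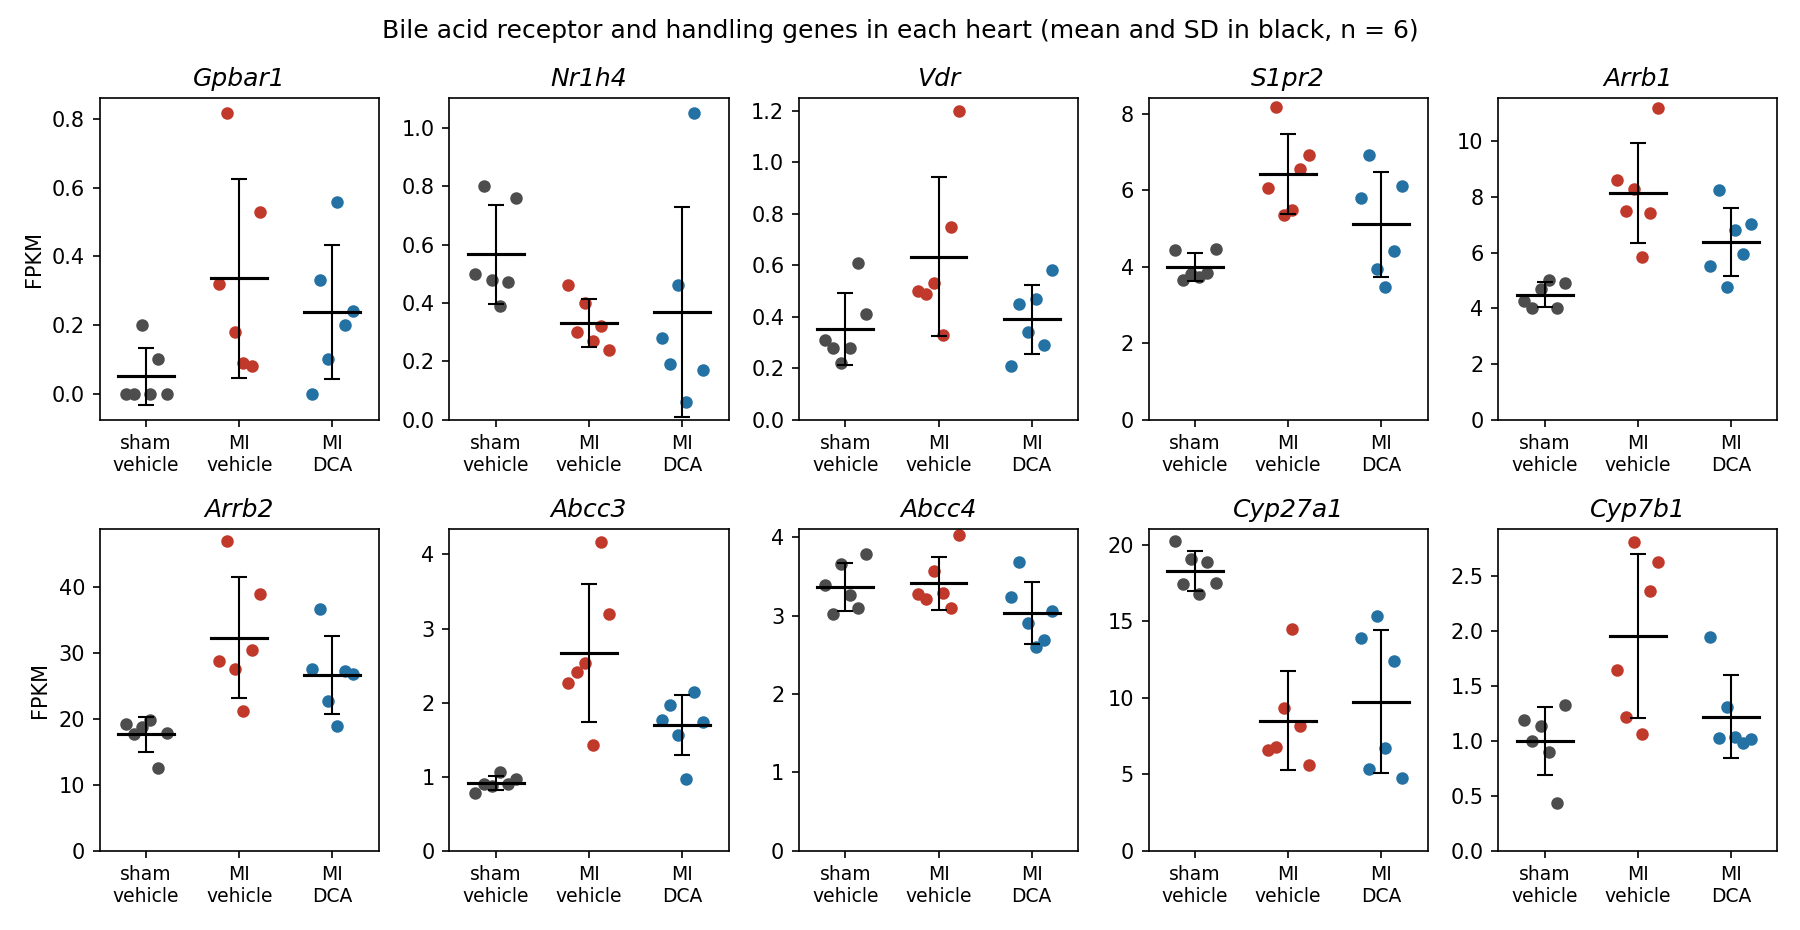
FPKM (vertical axes, one scale per gene) of the 10 genes in each of 18 hearts by group, with the mean and SD of 6 hearts in black. Cyp27a1 was lower in every infarcted heart than in every sham heart, Abcc3, Arrb1, Arrb2 and S1pr2 were higher in every MI_vehicle heart than in every sham heart, and Gpbar1, Nr1h4 and Vdr stayed near or under 1 FPKM.

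Across sham hearts, the levels per length ran from Cyp27a1 (mean 18.3 ± 1.30 FPKM, SD, n = 6) and Arrb2 (17.6 ± 2.60) through Arrb1 (4.49 ± 0.450), S1pr2 (3.98 ± 0.359) and Abcc4 (3.37 ± 0.303) to Cyp7b1 (1.00 ± 0.313), Abcc3 (0.913 ± 0.0946), Nr1h4 (0.567 ± 0.170) and Vdr (0.352 ± 0.141), with Gpbar1 last. The ranges of hearts separated Arrb2 from Arrb1, Abcc4 from Cyp7b1 and Vdr from Gpbar1, and every other pair of neighbours overlapped. The library kit enriches exons with capture probes, and how well each gene was captured was not measured, so the order is that of captured RNA. In MI_vehicle hearts Arrb2 stood alone at the top, and the ranges of Cyp27a1, Arrb1 and S1pr2 overlapped.

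Gpbar1, the TGR5 gene and the one named in the study's title, was close to the limit of detection in all groups. Its span in RefSeq is 990 bases (identifier 227289, chromosome 1, 74278600 to 74279589 in GRCm38.p6, plus strand), and the files give it 1 transcript, matched to a GENCODE model of 1075 bases. In sham_vehicle the 6 hearts read 0, 0, 0.20, 0, 0.10 and 0 FPKM. In MI_vehicle they read 0.32, 0.82, 0.18, 0.09, 0.08 and 0.53 FPKM, and in MI_DCA 0, 0.33, 0.10, 0.56, 0.20 and 0.24 FPKM. A value above 0 was present in 2 sham hearts, 6 MI_vehicle hearts and 5 MI_DCA hearts, and the groups overlapped.

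These values stood on very few reads. Divided by the estimated worth of 1 read, they fell within 0.12 of a whole read in every library and came to 0 to 10 reads. Gpbar1 was itself among the short genes from which depth was estimated, so this closeness was partly built in. The sums were 3 reads in sham_vehicle, 25 in MI_vehicle and 16 in MI_DCA, or 0.0493, 0.330 and 0.233 reads per 1000000 estimated reads. A heart at 0 therefore shows only that no read was assigned at this depth. In bulk tissue, fewer cells that express a gene and less of its RNA per cell cannot be told apart, here and in all results below.

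**Figure D2:**
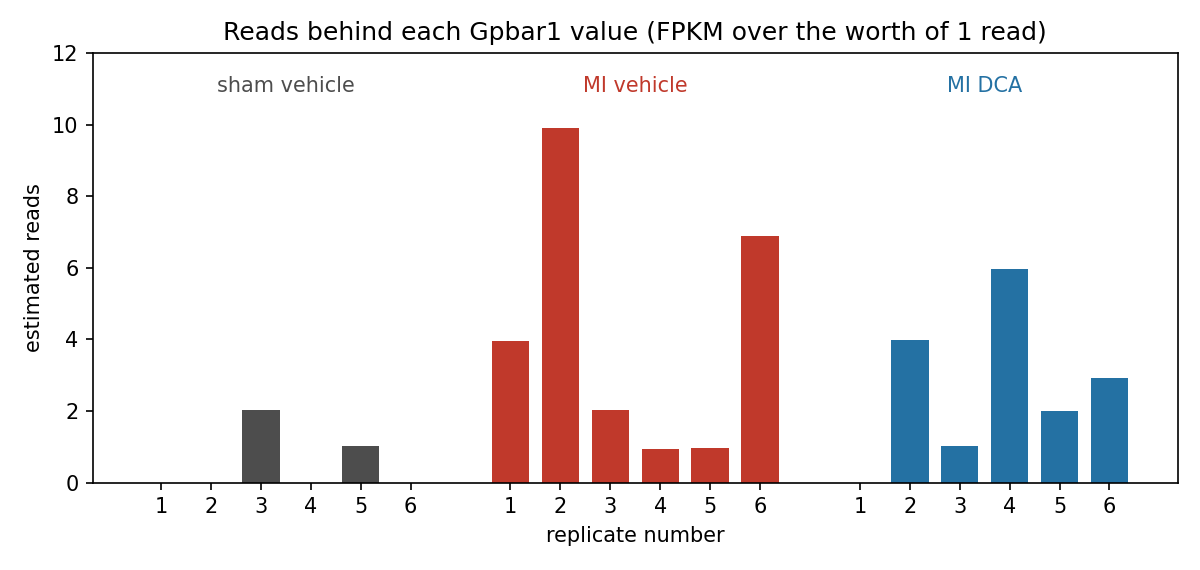
Estimated reads (vertical axis) behind the Gpbar1 value of each heart, by group and replicate number (horizontal axis). The sums are 3, 25 and 16 reads, with 10 of the 25 in a single MI_vehicle heart.

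Gpbar1 did not pass the adjusted test in any comparison. Genes under 1 FPKM in most hearts went into a two-sided exact permutation test of the difference in mean log2(FPKM + 1), over every regrouping of 12 hearts, with p-values adjusted over all such genes. Between MI_vehicle and sham_vehicle the difference for Gpbar1 was 0.33, with an exact permutation p of 0.0281 and an adjusted p of 0.180. In that comparison 19.2% of 6412 genes below the filter had an unadjusted p under 0.05 and 4.37% an adjusted one, so its unadjusted p is one that many low genes shared. With sham replicate 1, 2, 4 or 6 left out, the exact p was 0.0649. Between MI_DCA and MI_vehicle the difference was -0.10 (exact permutation p = 0.535, adjusted p = 1) and 0.01 without the 4 hearts with low Nppb, and it was -0.0037 without MI_vehicle replicate 2, the heart with 10 of the 25 reads. There 4.83% of such genes had an unadjusted p under 0.05 and 0.0% an adjusted one. Between MI_DCA and sham_vehicle it was 0.23 (exact permutation p = 0.0649, adjusted p = 0.462), where 11.9% had an unadjusted p under 0.05 and 0.0% an adjusted one. Without MI_DCA replicates 1, 3 and 5, that last difference was 0.39. Its unadjusted exact p of 0.0119 was the smallest that 84 regroupings allow, and its adjusted p was 0.120.

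Nr1h4, which encodes FXR, the nuclear receptor that senses bile acids in liver and ileum, was detected in all 18 hearts but under 1 FPKM in 17. Its levels were 0.39, 0.49 and 0.80 FPKM (lowest, median, highest) in sham_vehicle, 0.24, 0.31 and 0.46 in MI_vehicle, and 0.06, 0.235 and 1.05 in MI_DCA. These values came almost wholly from predicted transcript models, since of the 2 curated models one was above 0 in 0 hearts and the other in 1. One predicted model averaged 0.312 FPKM in sham_vehicle and 0.045 in MI_vehicle, and another 0.227 and 0.25. The highest and the lowest values of all 18 hearts were both in MI_DCA, replicates 5 and 4. Between MI_vehicle and sham_vehicle the difference was -0.23 (exact permutation p = 0.00866, adjusted p = 0.0919), so the lower mean in infarcted hearts did not pass the adjusted test. Between MI_DCA and MI_vehicle the difference was 0.01 (exact permutation p = 0.981, adjusted p = 1). It turned to -0.24 when the 4 hearts with low Nppb were left out, with 3 DCA hearts against 5. There the unadjusted exact p of 0.0179 was the smallest that 56 regroupings allow, and the adjusted p was 0.992. Between MI_DCA and sham_vehicle the difference was -0.22 (exact permutation p = 0.162, adjusted p = 0.668), and -0.45 without MI_DCA replicates 1, 3 and 5. That last value had an unadjusted exact p of 0.0119, the smallest that 84 regroupings allow, and an adjusted p of 0.120.

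The genes that FXR pairs with and acts on gave values of another kind. Of 8 listed partner and target genes, 4 were high enough to test, and between MI_vehicle and sham_vehicle none was called higher and 3 lower, with a median log2 fold change of -0.45 against 0.12 over all 11969 genes tested, of which 38.3% were called higher and 20.1% lower. Cardiomyocyte markers moved the same way, with 6 of 8 called lower and a median of -0.67, and their part in these calls was not tested. All 3 were retinoid X receptors, the shared partners of nuclear receptors: Rxrg (42.2 ± 3.92 to 23.1 ± 10.6 FPKM, log2 fold change -0.96, adjusted p = 0.00383), Rxra (log2 fold change -0.46, adjusted p = 0.0031) and Rxrb (-0.28, adjusted p = 0.00902). Nr0b2, which encodes SHP, a repressor induced by FXR in liver, was present at 9.63 to 11.68 FPKM in sham hearts, a higher level per length than that of Nr1h4. It was 3.47 to 11.16 FPKM in MI_vehicle, and its log2 fold change of -0.43 did not pass the test (adjusted p = 0.109), although it did after quantile normalization (adjusted p = 0.0406). Fgf15, the intestinal hormone induced by FXR, was above 0 in 1 heart of each group and never over 0.06 FPKM. None of the 4 was called in either comparison with MI_DCA.

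Vdr, which encodes the vitamin D receptor, a nuclear receptor that also binds the secondary bile acid lithocholic acid, was detected in all 18 hearts on an estimated 9 to 72 reads. Its levels were 0.22, 0.295 and 0.61 FPKM (lowest, median, highest) in sham_vehicle, 0.33, 0.515 and 1.2 in MI_vehicle, and 0.21, 0.395 and 0.58 in MI_DCA. The groups overlapped. Between MI_vehicle and sham_vehicle the difference in mean log2(FPKM + 1) was 0.26 (exact permutation p = 0.0433, adjusted p = 0.236). The unadjusted exact p was 0.0909 after median-ratio scaling and 0.173 after quantile normalization, and it ran from 0.0130 to 0.0952 when 1 heart was left out. Without MI_vehicle replicate 6 the difference was 0.17 (exact permutation p = 0.0823). Between MI_DCA and MI_vehicle it was -0.22 (exact permutation p = 0.0823, adjusted p = 1), and between MI_DCA and sham_vehicle 0.04 (exact permutation p = 0.615, adjusted p = 1), or 0.16 (unadjusted exact p = 0.107) without MI_DCA replicates 1, 3 and 5. Of 7 listed genes of vitamin D metabolism and VDR targets, only Spp1 was high enough to test. Spp1 encodes osteopontin, which macrophages and injured tissue also make. It rose from 14.9 ± 10.4 FPKM in sham_vehicle to 303.2 ± 144.5 in MI_vehicle and was 188.7 ± 167.1 in MI_DCA (log2 fold changes 4.43 and 3.45 against sham_vehicle, adjusted p = 5.53e-05 and 0.00799).

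S1pr2 was the one receptor of the 4 that could be tested across all genes. It encodes a G protein-coupled receptor for sphingosine-1-phosphate that also responds to conjugated bile acids (identifier 14739, chromosome 9, 20965952 to 20976793). It read 3.65, 3.82 and 4.45 FPKM (lowest, median, highest) in sham_vehicle, 5.34, 6.31 and 8.17 in MI_vehicle, and 3.46, 5.10 and 6.92 in MI_DCA, on an estimated 229 to 659 reads. Every MI_vehicle heart was above every sham heart, whereas the MI_DCA hearts spanned both ranges, with replicates 3, 4 and 5 at 3.94, 3.46 and 4.4. In limma, a linear model fitted to log2(FPKM + 1) of all genes past the filter and adjusted over all of them by Benjamini-Hochberg, S1pr2 rose in MI_vehicle against sham_vehicle with a log2 fold change of 0.57 (SE 0.094, adjusted p = 0.000404). Against sham_vehicle the MI_DCA value was 0.26 (adjusted p = 0.146) and against MI_vehicle it was -0.30 (95% interval -0.62 to 0.02, adjusted p = 0.465).

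Around S1pr2, 10 of 12 listed receptors, enzymes and G proteins of the sphingosine-1-phosphate pathway could be tested. Between MI_vehicle and sham_vehicle 5 were called higher and 1 lower, with a median log2 fold change of 0.30, where 38.3% of all genes tested were called higher and 20.1% lower. Between MI_DCA and sham_vehicle 4 were called higher and 1 lower, against 15.5% and 8.33%. Sphk1, the kinase that makes sphingosine-1-phosphate, went from 1.2 ± 0.389 to 5.49 ± 2.62 FPKM in MI_vehicle (log2 fold change 1.48, adjusted p = 0.000335), and Sgpl1, the lyase that breaks it down, from 7.92 ± 0.702 to 14.96 ± 2.42 (0.83, adjusted p = 9.51e-05). The G protein subunit genes Gna13 (log2 fold change 0.72, adjusted p = 0.000412) and Gnai2 (0.61, adjusted p = 0.000256) rose as well, and Gna12 fell (-0.34, adjusted p = 0.0227). Spns2, an exporter of the lipid, was higher at 0.30 (adjusted p = 0.0168) but not after median-ratio scaling (adjusted p = 0.120). The receptors S1pr1 and S1pr3 did not pass the test, at 0.21 (adjusted p = 0.308) and 0.31 (adjusted p = 0.0546). The monocyte markers given with the arrestins below moved with these genes too.

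Both arrestin genes were higher after infarction. Arrb2 (identifier 216869, chromosome 11, 70432485 to 70440828) read 12.59, 18.28 and 19.85 FPKM (lowest, median, highest) in sham_vehicle, 21.16, 29.56 and 46.95 in MI_vehicle, and 18.93, 26.99 and 36.54 in MI_DCA. Arrb1 (identifier 109689, chromosome 7, 99535147 to 99606772) read 4.0, 4.49 and 5.01 FPKM in sham_vehicle, 5.83, 7.91 and 11.20 in MI_vehicle, and 4.75, 6.39 and 8.24 in MI_DCA. For both genes no MI_vehicle heart overlapped the sham range, while MI_DCA overlapped it through its lowest heart. Both rose in MI_vehicle against sham_vehicle (Arrb2 log2 fold change 0.80, SE 0.17, adjusted p = 0.00135, and Arrb1 0.72, SE 0.12, adjusted p = 0.000359). Both also rose in MI_DCA against the same sham hearts (Arrb2 0.55, adjusted p = 0.0225, and Arrb1 0.42, adjusted p = 0.0233). The call of Arrb1 in MI_DCA was lost without sham replicate 2 or 5 or MI_DCA replicate 6 (adjusted p = 0.0514, 0.0543 and 0.0507). In MI_DCA against MI_vehicle neither passed the test (Arrb2 -0.25, 95% interval -0.66 to 0.15, adjusted p = 0.591, and Arrb1 -0.30, interval -0.61 to 0.01, adjusted p = 0.461). The Arrb2 value was -0.14 without MI_vehicle replicate 2. Without the 4 hearts with low Nppb the Arrb1 value was -0.19 (adjusted p = 0.615).

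Markers of infiltrating monocytes and of neutrophils moved with the arrestins and with S1pr2 and Abcc3. Against sham_vehicle, S1pr2 was called in MI_vehicle but not in MI_DCA. Of the markers of infiltrating monocytes and macrophages, 10 of 10 were called higher in MI_vehicle and 7 of 10 in MI_DCA against sham_vehicle, and their summed level was 65.8 to 104.6 FPKM in sham_vehicle, 206.0 to 575.4 in MI_vehicle and 124.9 to 439.3 in MI_DCA. The 7 neutrophil markers summed to 10.2 to 37.2, 51.9 to 351.6 and 39.9 to 174.5 FPKM, with 4 of 4 tested called higher in both infarcted groups. No marker of either list was at 0 across a whole group. Of 5 tested markers of resident cardiac macrophages, 1 was called higher and 1 lower in MI_vehicle against sham_vehicle (38.3% and 20.1% of all genes). In MI_DCA against sham_vehicle 0 were called higher and 1 lower (15.5% and 8.33% of all genes). The part of any of these cells in the rise of the 4 genes was not tested.

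The receptor kinases that prepare receptors for arrestin binding were tested in the same way. Of 7 listed kinases and visual arrestins, 5 could be tested, and 3 were called higher in MI_vehicle against sham_vehicle, with a median log2 fold change of 0.37, where 38.3% of all genes tested were so called. Grk5, a kinase abundant in heart, rose from 11.0 ± 2.003 to 28.5 ± 6.97 FPKM (log2 fold change 1.27, adjusted p = 0.000124), Grk6 had a log2 fold change of 0.44 (adjusted p = 0.00129) and Grk2 of 0.37 (adjusted p = 0.00171). Grk4 was at -0.28 (adjusted p = 0.0512) and was called lower after median-ratio scaling (-0.42, adjusted p = 0.00581) and quantile normalization (-0.43, adjusted p = 0.00628). In MI_DCA against sham_vehicle, Grk5 (0.84, adjusted p = 0.0233) and Grk2 (0.27, adjusted p = 0.0464) were called, Grk2 not after median-ratio scaling (adjusted p = 0.0937). The Gs pathway that TGR5 couples to showed no single direction: of 19 genes tested, 5 were called higher and 6 lower in MI_vehicle (38.3% and 20.1% of all genes), with a median of 0.06 that turned to -0.08 after median-ratio scaling. The 4 largest were Pde4b, a phosphodiesterase of inflammatory cells (0.93, adjusted p = 0.000727), the adenylyl cyclase Adcy7 (0.74, adjusted p = 0.00205), the phosphodiesterase Pde4d (-0.63, adjusted p = 0.000669) and Prkar2a, a regulatory subunit of protein kinase A (0.59, adjusted p = 0.0192, and 0.0569 after median-ratio scaling). Gnas, which encodes Gs itself, was at 891.0 ± 57.1 FPKM in sham_vehicle and did not pass the test (-0.08, adjusted p = 0.509).

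The transporters differed from each other. Abcc3, which encodes MRP3, an exporter that carries bile acids and glucuronides out of cells (identifier 76408, chromosome 11, 94343295 to 94393017), read 0.78, 0.90 and 1.06 FPKM (lowest, median, highest) in sham_vehicle, 1.43, 2.48 and 4.17 in MI_vehicle, and 0.97, 1.76 and 2.14 in MI_DCA. Every MI_vehicle heart was above every sham heart, and all but 1 MI_DCA heart were. Abcc3 passed the filter of 1 FPKM through the infarcted hearts, with 1 of 6 sham hearts at 1 FPKM or more, so its call was partly built into the filter. Its log2 fold change was 0.90 (SE 0.14, adjusted p = 0.00031) in MI_vehicle and 0.48 (adjusted p = 0.0150) in MI_DCA, each against sham_vehicle. Between MI_DCA and MI_vehicle it was -0.42 (95% interval -0.79 to -0.06, adjusted p = 0.434), and the 2 groups overlapped.

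Abcc4, which encodes MRP4, an exporter of bile acids and cyclic AMP (identifier 239273, chromosome 14, 118482692 to 118707856), passed the test in no comparison. It read 3.02, 3.33 and 3.78 FPKM (lowest, median, highest) in sham_vehicle, 3.10, 3.29 and 4.03 in MI_vehicle, and 2.60, 2.98 and 3.68 in MI_DCA. Its log2 fold change was 0.01 in MI_vehicle against sham_vehicle (95% interval -0.15 to 0.18, adjusted p = 0.881) and -0.13 in MI_DCA against MI_vehicle (interval -0.31 to 0.05, adjusted p = 0.543). The first turned to -0.10 and -0.15 after median-ratio scaling and quantile normalization, without passing the test, and the same scalings moved the median over all genes tested from 0.12 to -0.01 and -0.03.

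Most other bile acid transporters were low in the heart. Of 13 listed genes in the files, 5 could be tested, and 1 was called higher and 2 lower in MI_vehicle (38.3% and 20.1% of all genes), with a median of -0.18. Abcc1, the related exporter MRP1, rose from 7.36 ± 0.747 to 12.4 ± 1.71 FPKM (log2 fold change 0.67, adjusted p = 0.000196), and Slco2b1, an organic anion importer, fell from 11.0 ± 1.26 to 5.18 ± 2.03 (-1.01, adjusted p = 0.000369). Abcb4, a phospholipid exporter, fell less (-0.30, adjusted p = 0.0241). The liver importer Slc10a1 was at 0 to 0.51 FPKM in sham hearts, the ileal importer Slc10a2 at 0 to 0.12 and the canalicular pump Abcb11 at 0 to 0.07.

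Cyp27a1 was the one member that limma called lower among genes past the filter. It encodes sterol 27-hydroxylase, a mitochondrial enzyme that starts the alternative route of bile acid synthesis and works in many tissues beside liver (identifier 104086, chromosome 1, 74713148 to 74737897). The sham hearts read 20.23, 17.40, 19.03, 16.76, 18.86 and 17.47 FPKM. The MI_vehicle hearts read 6.56, 6.81, 9.36, 14.52, 8.13 and 5.63 FPKM, and the MI_DCA hearts 13.92, 5.37, 15.37, 6.74, 12.38 and 4.74. Every infarcted heart was below every sham heart in both groups. Within each infarcted group the highest hearts were those with low Nppb, replicate 4 of MI_vehicle and replicates 1, 3 and 5 of MI_DCA.

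The fall of Cyp27a1 passed the test in both infarcted groups. Its log2 fold change was -1.08 (SE 0.16, adjusted p = 0.000254) in MI_vehicle and -0.96 (adjusted p = 0.0214) in MI_DCA, against the same 6 sham hearts. Without MI_DCA replicates 1, 3 and 5 the latter was -1.55 (adjusted p = 7.2e-07). For MI_DCA against MI_vehicle it was 0.11 (95% interval -0.52 to 0.75, adjusted p = 0.866), and -0.32 (adjusted p = 0.503) without the 4 hearts with low Nppb. Cardiomyocyte markers moved with it: of 8, 6 were called lower in MI_vehicle and 3 in MI_DCA, and their summed level was 15620 to 32462 FPKM in MI_vehicle and 15133 to 36293 in MI_DCA, against 33578 to 36804 in sham_vehicle. The summed level of 6 fibroblast markers was 1103 to 1354 FPKM in sham_vehicle, 590.7 to 957.8 in MI_vehicle and 442.2 to 1024.9 in MI_DCA. Against sham_vehicle, 3 of the 6 were called higher and 2 lower in MI_vehicle, and 0 higher and 3 lower in MI_DCA. Of 6 endothelial markers, 3 were called lower in MI_vehicle and 0 in MI_DCA. The part of any of these cell types in the fall of Cyp27a1 was not tested.

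**Figure D3:**
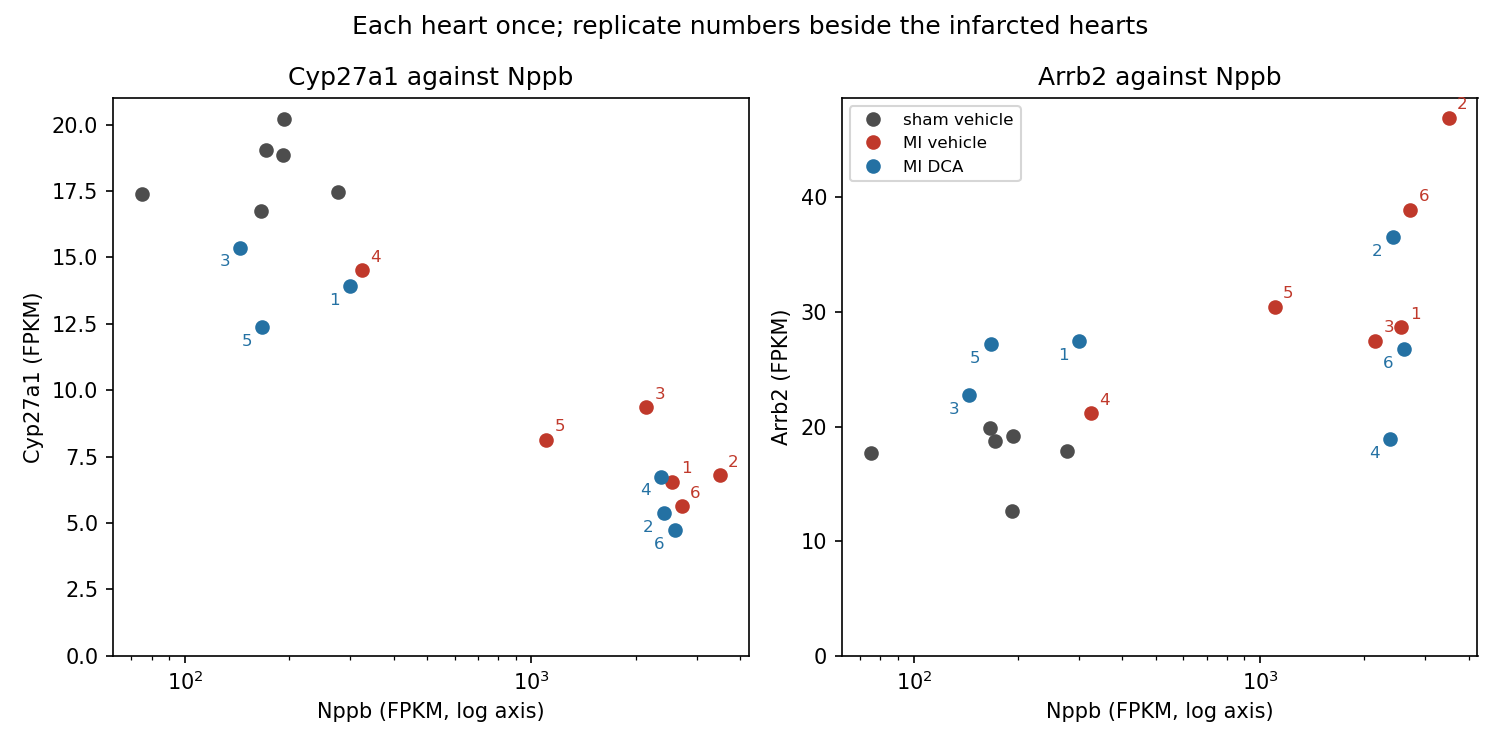
FPKM of Cyp27a1 (left) and Arrb2 (right) against FPKM of Nppb on a log axis, 1 point per heart, with replicate numbers beside the infarcted hearts. The 4 infarcted hearts with Nppb of 144.3 to 323.8 FPKM had 12.38 to 15.37 FPKM of Cyp27a1 and the other 8 had 4.74 to 9.36. Arrb2 was 21.16 to 27.47 FPKM in those 4, toward the low end of the 18.93 to 46.95 in the other 8.

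Cyp7b1, the oxysterol 7-alpha-hydroxylase that follows Cyp27a1 on the alternative route (identifier 13123, chromosome 3, 18071944 to 18243890), read 0.44, 1.07 and 1.33 FPKM (lowest, median, highest) in sham_vehicle, 1.06, 2.01 and 2.81 in MI_vehicle, and 0.98, 1.04 and 1.95 in MI_DCA, on an estimated 10 reads or more in each heart. The lowest sham heart was replicate 5, the library with liver transcripts. Cyp7b1 rose in MI_vehicle against sham_vehicle, with overlapping ranges (log2 fold change 0.54, SE 0.17, adjusted p = 0.0144). All 6 MI_vehicle hearts but only 4 sham hearts were at 1 FPKM or more, so this call was partly built into the filter. In MI_DCA 5 of 6 hearts were within the sham range, and the log2 fold change against sham_vehicle was 0.15 (adjusted p = 0.390), or 0.04 (adjusted p = 0.842) without MI_DCA replicates 1, 3 and 5. The value for MI_DCA against MI_vehicle was -0.39 (95% interval -0.75 to -0.02, adjusted p = 0.449).

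Other enzymes of bile acid synthesis were mostly below the filter. Of 15 listed, 7 could be tested, and 3 were called higher and 4 lower in MI_vehicle (38.3% and 20.1% of all genes), with a median of -0.39. Ch25h, which makes 25-hydroxycholesterol and is induced in activated macrophages, went from 1.10 ± 0.593 to 16.03 ± 6.59 FPKM (log2 fold change 2.95, adjusted p = 2.06e-05) and was 7.76 ± 5.13 in MI_DCA (1.89 against sham_vehicle, adjusted p = 0.00807). The peroxisomal genes Amacr (-0.66, adjusted p = 0.0048) and Scp2 (-0.54, adjusted p = 0.00456) and the oxysterol hydroxylase Cyp39a1 (-0.60, adjusted p = 0.0016) fell. The calls of Hsd3b7 and Acot8 as higher were lost after median-ratio scaling (adjusted p = 0.203 and 0.0553). Cyp7a1, the rate-limiting enzyme of the classical route in liver, did not exceed 0.05 FPKM in any heart. Of 12 other receptors for bile acids or oxysterols, 8 could be tested in MI_vehicle against sham_vehicle: Fpr1, a formyl peptide receptor of neutrophils and monocytes, was called higher (1.19, adjusted p = 0.00121), and so was Gpr183, an oxysterol receptor (0.37, adjusted p = 0.0255, and 0.0620 after median-ratio scaling). Fpr1 read 0.15 to 0.53 FPKM in sham_vehicle and 1.01 to 4.33 in MI_vehicle, so it passed the filter through the infarcted hearts alone and its call was built into the filter. Gpr183 read 0.58 to 1.66 FPKM in sham_vehicle and 1.06 to 2.14 in MI_vehicle. The MI_vehicle hearts alone met the filter for Gpr183, so its call was partly built in too.

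Counted together, 7 of the 10 genes passed the filter in each comparison and 3 (Gpbar1, Nr1h4 and Vdr) did not. Between MI_vehicle and sham_vehicle 5 of the 7 were called higher and 1 lower, in a comparison where 38.3% of all 11969 genes tested were called higher and 20.1% lower. Of those 5, Abcc3 and Cyp7b1 had sham hearts under 1 FPKM, so their calls were partly built into the filter. Of all 10 members, 4 were higher in every MI_vehicle heart than in every sham heart and 1 lower, where 11.6% of 18381 genes above 0 were so higher and 4.11% lower. Between MI_DCA and sham_vehicle 3 were called higher and 1 lower, against 15.5% and 8.33% of 11842 genes, and only Cyp27a1 had groups that did not overlap, against 4.48% of 18258 genes higher and 2.03% lower. Calls were thus common among all genes after infarction, and the counts of so few members are given as a description. Both comparisons use the same sham hearts.

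**Figure D4:**
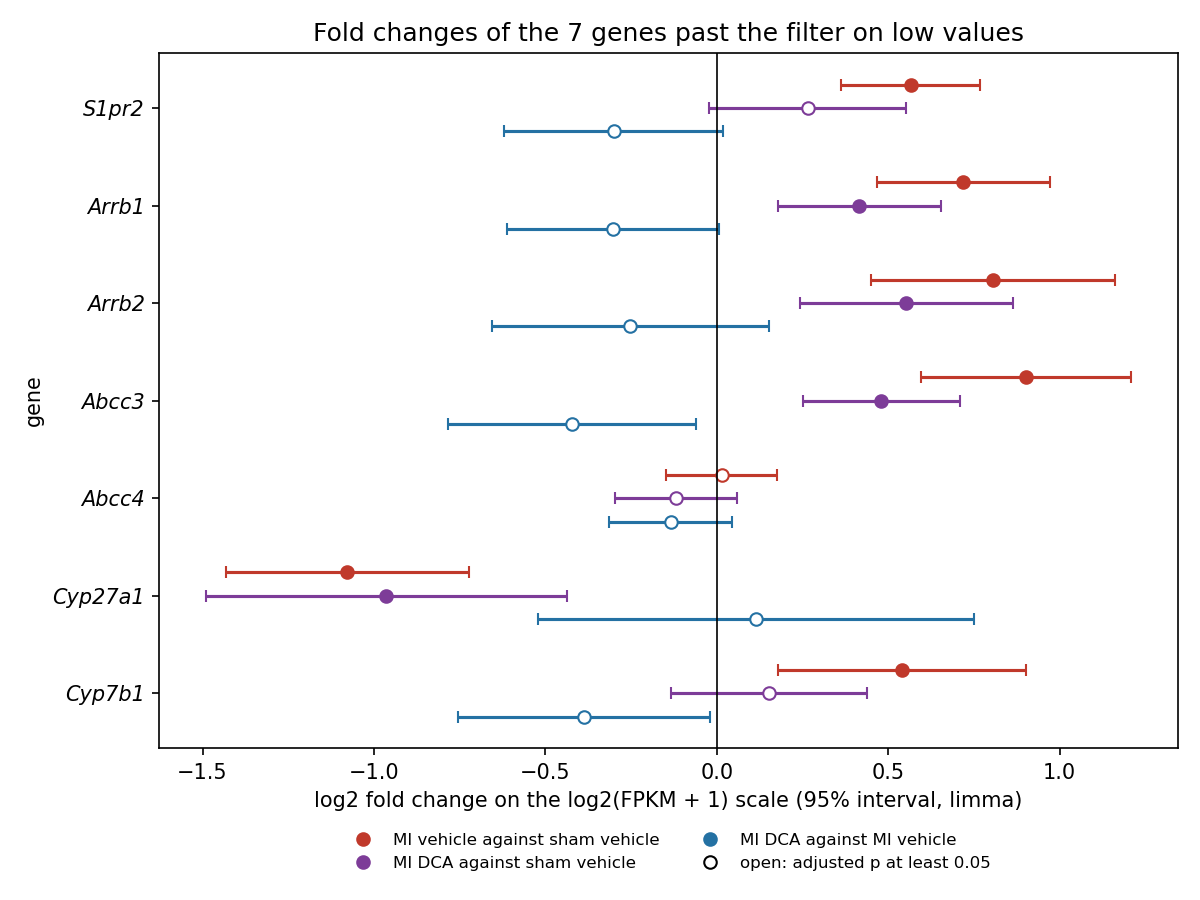
Log2 fold changes on the log2(FPKM + 1) scale (horizontal axis) with 95% intervals from limma for the 7 genes past the filter, by comparison, filled where the adjusted p was under 0.05. For S1pr2, Arrb1, Arrb2, Abcc3 and Cyp7b1 the MI_DCA value against sham_vehicle lies between 0 and the MI_vehicle value, and no point of MI_DCA against MI_vehicle is filled.

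DCA against vehicle within infarction gave no called member. Of the 7 genes tested, 0 were called, as were 0.0% of all 12004 genes tested by limma, of which 1299 had an unadjusted p under 0.05, and no member had groups that did not overlap (0.453% of 18337 genes did). The 7 log2 fold changes ran from -0.42 for Abcc3 to 0.11 for Cyp27a1. The median of all genes was -0.06, and 0.01 after median-ratio scaling and after quantile normalization. The MI_vehicle hearts also enter the comparison with sham_vehicle, so values below 0 for the 5 genes called higher there were partly built in. Two-sided unadjusted p-values under 0.05 were found for Abcc3 (limma, 0.0258) and Cyp7b1 (limma, 0.0400), neither of which held after adjustment. After median-ratio scaling the unadjusted limma p was 0.0368 for Abcc3 and 0.0608 for Cyp7b1. After quantile normalization it was 0.0502 and 0.0881. Without the 4 hearts with low Nppb these 2 were at -0.61 (adjusted p = 0.337) and -0.60 (adjusted p = 0.329). The unadjusted 95% intervals of the 5 genes that rose in MI_vehicle reached down to between -0.61 and -0.79, and a p that misses the threshold does not show that DCA and vehicle hearts were alike.

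The genes whose values ran most like each tested member over the 18 libraries, by Pearson correlation of log2(FPKM + 1) among 12229 genes, are given as likeness only, since the libraries share groups and injury. For S1pr2 they were Vav1 (r = 0.935), Clec4a2 and Myo1f (both 0.934). For Abcc3 they were Cd84 (0.936), Tbxas1 (0.931) and Hk3 (0.929), and for Arrb2 Alox5ap (0.974), Apbb1ip (0.969) and Lyn (0.966), all of these known from white blood cells. For Arrb1 they were Kctd11, Ptpre and Rrbp1 (all 0.969). For Cyp27a1 they were Ecm2 (0.982), Echdc3 (0.981) and Wnk2 (0.980). Likeness was weaker for Cyp7b1 (Il33, 0.844, Ifnar2, 0.815, and Usp35, 0.810) and Abcc4 (Yaf2, 0.847, Atrnl1, 0.827, and Fam49a, 0.778).

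Transcript values were examined as a description only. Gpbar1 and Vdr had 1 transcript each, and S1pr2 took 98.43 to 99.35% of its group mean from 1 of 2. For Arrb1 the main transcript of the sham hearts held 65.4% of the gene in sham_vehicle, 21.9% in MI_vehicle and 24.3% in MI_DCA, and for Abcc3 one transcript held 73.4%, 32.9% and 79.1%. In both genes the assigned transcript switched between single hearts of the same group, some hearts having all of the value on one model and others none. With single reads of 50 bases the split between similar models is uncertain. Each gene value matched the sum of its transcript values to within 0.04 FPKM, and each transcript is scaled by its own length. The Arrb1 and Abcc3 values can therefore depend on the split, and how far they do was not tested.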

How the data were processed

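RNA of 18 heart apices was sequenced as RNA Access libraries with single reads of 50 bases, per the labels' protocols. Tools listed in the submitters' processing notes are RSEM 1.2.12, Bowtie2 2.2.5 and DESeq2 1.4.5, with build GRCm38.p6, and the role of each is not given in the sources used here. The values deposited by the authors are FPKM per gene (19197) and per transcript (64405), with 2 decimals. The unit was inferred from the values, since FPKM times length summed to nearly the same in every library (coefficient of variation 0.31%) and plain sums did not (3.09%). Depth was estimated from the steps of 1 read in low values of 1229 short genes, searched from 8000000 to 16000000 reads, and spacings of 2 or 0.5 times that found were not tested. The span of each gene on the genome served as its length. The fit to the steps, where 1 is exact, scored only 0.178 to 0.359 per library, on 167 to 196 values. What score would arise by chance was not measured, so the read numbers are estimates.

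Groups came from the tissue and treatment labels. For each of 3 comparisons, limma 3.58.1 (R 4.3.3, intensity trend) was run on the 12 libraries compared, using log2(FPKM + 1) of genes with at least 1 FPKM in at least 6 libraries, with Benjamini-Hochberg adjustment and calls at an adjusted p under 0.05. This scale understates changes of low genes. Genes below the filter were compared with two-sided exact permutation tests. Their smallest possible p is 0.002165 for 6 hearts against 6, and 0.03125 with the replicate block. Without the hearts with low Nppb it is 0.0179 for MI_DCA against MI_vehicle and 0.0119 for MI_DCA against sham_vehicle. The limma script and the permutation test were tested on simulated data. Called genes of a pathway list were named up to the 4 with the largest change, and any further list gene named was chosen after its values were seen. A result on the list of other receptors is not reported here. The members, lists and markers were chosen with earlier results of these data known. Alternatives were the pseudocount, the filter, scaling, the trend, the samples in the fit, the replicate block and leaving out each library, and 1 alternative without 4 infarcted hearts was chosen after seeing the data. Sequences are from RefSeq, GRCm38.p6.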

Additional observations from a re-analysis of the deposited data

Results flagged for a closer look

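A test for a single heart far from the other 5 of its group was applied to the 10 genes in 3 groups, 30 in all, of which chance would mark about 1 in 20. It marked 2. Cyp7b1 was 1.95 FPKM in MI_DCA replicate 1, where the other 5 hearts were at 0.98 to 1.31, and that gap was 0.660 of the range. Arrb2 was 12.59 FPKM in sham_vehicle replicate 5, where the other 5 were at 17.71 to 19.85 (gap 0.705 of the range), and this is the library with liver transcripts. Without it, 5 members were still called higher and 1 lower in MI_vehicle against sham_vehicle.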

How the results depend on the processing

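With no filter, 2 members were called lower in MI_vehicle against sham_vehicle, since Nr1h4 joined (adjusted p = 0.0173), and 6 higher, since Gpbar1 joined (adjusted p = 0.0418, while its exact permutation test gave 0.180). With at least 1 FPKM asked of all 12 libraries, 3 of 5 tested were called higher. Abcc3 and Cyp7b1, both called higher under the filter of 6 libraries, were then no longer tested. Leaving out 1 heart at a time kept 5 higher and 1 lower in MI_vehicle, 0 and 0 for DCA against vehicle in infarction, and gave 2 to 3 higher and 1 lower in MI_DCA against sham_vehicle. Under median-ratio scaling and quantile normalization the calls of the members were the same, while over all genes the split in MI_vehicle against sham_vehicle went from 4583 higher and 2408 lower to 3336 and 3462, and 3198 and 3734. Signs turned for values that passed no adjusted test, and the cause was not tested: Abcc4 in MI_vehicle against sham_vehicle (-0.10 and -0.15 by the scalings, -0.0242 to 0.0408 leaving out 1 heart), and in MI_DCA against MI_vehicle Cyp27a1 (-0.32 without the 4 hearts with low Nppb, -0.0316 to 0.2708 leaving out 1 heart), Gpbar1 (0.0089 without the 4 hearts) and Nr1h4 (-0.16 with a pseudocount of 0.1, -0.24 without the 4 hearts, -0.1182 to 0.0721 leaving out 1 heart). Replicate numbers did not pair the hearts: correlations of deviations between same-numbered libraries of MI_DCA and MI_vehicle ran from -0.44 to 0.686. The replicate block left the counts of called members at 5 and 1, 0 and 0, and 3 and 1. Depth limits Gpbar1, at 0 to 10 estimated reads per heart.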
